A study of Mus musculus with 10 samples.

Results

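The first of the comparisons deposited for sorted hematopoietic progenitor cells of mouse bone marrow covers 12791 genes, which are all 12791 rows of the authors' deposited table. All of them were used here. Cells that carry c-Kit but neither Sca-1 nor markers of mature lineages were sorted from C57BL/6 mice, and their RNA was sequenced in bulk. The series' design text describes GL261, a mouse glioma line, implanted into mice with GFP knocked into Kdr, the gene of a receptor for vascular endothelial growth factor, so that GFP marks cells expressing it. The labels give 3 naive libraries from mice without tumor, and 4 KDR-negative and 3 KDR-positive libraries from mice at week 4 of GL261 growth. Whether the naive mice carried the GFP allele is not stated. The labels do not say whether a group's libraries are from different mice, so p-values measure the spread between these samples alone, and it may be technical.

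For each gene the authors' deposited table lists the log2 fold change and the mean level in log2 CPM. By name these are reads scaled to library size, but the summed levels given below do not keep to that. The authors' deposited table also lists the p-value and its false discovery rate, called adjusted p below. It has no value per library. Depth is therefore unknown, and no standard deviation can be given. Positive fold changes mean higher in the numerator group, negative ones higher in the denominator group. Levels in CPM printed for one group were derived from the mean level and the fold change, with both groups of the first comparison weighted equally. Levels of single genes taken from the second comparison used weights of 4 against 3, the library numbers inferred below.

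Cells of this sort are the myeloid and erythroid progenitors of the marrow. They divide fast, and most of their messenger RNA serves protein synthesis, energy supply and the cell cycle. Marrow also holds resident macrophages, which take up dying cells and expelled erythroblast nuclei, recycle their iron and lipid, and carry large amounts of lysosomal, complement and iron transport transcripts.

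The header of the authors' deposited table does not name the groups, but its values narrow them. A gene that is near 0 in one group has a mean equal to the other group's level times that group's share of the libraries. For 32 genes near 0 in the numerator group, the mean of the first comparison was divided by the denominator level taken from the second comparison. This ratio had a median of 0.502, with the 10th to 90th percentile from 0.498 to 0.507. It already assumes weights of 4 against 3 libraries in the second comparison. With equal weights there, which do not assume these sizes, the median was 0.504 and the same percentiles were wider, from 0.4845 to 0.5208. Groups of equal size give 0.5, a denominator of 3 among 7 libraries gives 0.429 and one of 4 among 7 gives 0.571. In the second comparison only Eef1a1, which encodes a translation elongation factor, could be used in this way, and its ratio was 0.425. With equal weights in both comparisons, their denominator levels also matched each other over 9044 genes. The median absolute deviation was 0.0087 on the log2 scale, against 0.064 for the next closest pair of sides. Sizes of 3 against 3 for the first comparison and 4 against 3 for the second leave 1 pair of groups for each. The first comparison then holds the naive and the KDR-positive groups, and the KDR-negative group is the numerator of the second. This step is fairly sure, provided that every library was used and each counted equally.

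Which of the naive and KDR-positive groups is the numerator is less sure, because both have 3 libraries. The only direct evidence is Kdr itself. Its derived level was 0.922 CPM in the denominator group, 2.21 CPM in the first numerator group and 0.373 CPM in the numerator group of the second comparison. Derived from the second comparison, the denominator level was 0.805 CPM, and the mean there was -0.84 log2 CPM. All these levels are low and come from separate comparisons, so their order is weak evidence. Kdr was thus highest in the first numerator group, which would be the KDR-positive one on that reading, but the authors' deposited table gives it a log2 fold change of 1.26 with an adjusted p of 0.617. Kdr therefore did not pass the test, and it did not pass in the second comparison either. The fold changes are therefore described below as numerator over denominator, most likely KDR-positive tumor over naive, without resting on that order.

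Of the genes behind the sort, neither Kit nor Ly6a passed the test. Kit was 59.1 CPM in the denominator and 39.1 CPM in the numerator group in the authors' deposited table (adjusted p = 0.128). Ly6a, the gene of Sca-1, was 27.4 and 37.0 CPM, with an adjusted p of 0.402 in the authors' deposited table. Id2, an inhibitor of basic helix-loop-helix factors, was 28.1 and 132 CPM. The authors' deposited table gives it 2.24 as log2 fold change (adjusted p = 9.1e-09). Among 19 measured genes of the sort and its lineage panel 5 rose and 4 fell. The 5 that rose in the authors' deposited table were Fcgr3, Fcgr2b, Cd4, Cd48 and Ptprc, and Flt3 and Il7r were among the 4 that fell. Fcgr3, an Fc receptor used to divide myeloid progenitors, went from 84.4 to 357 CPM. Flt3, the receptor of lymphoid-primed progenitors, went from 47.5 to 9.79 CPM. Cd4, a coreceptor of T cells, went from 2.91 to 39.1 CPM. Xist, the RNA that coats the inactive X chromosome, was 80.6 and 117 CPM (adjusted p = 0.266 in the authors' deposited table), and none of the 7 other sex-linked genes looked for was in the table.

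Of the 12791 genes, 2401 were higher and 446 lower in the numerator group at an adjusted p under 0.05 in the authors' deposited table. The background shares against which families are read are thus 18.8% higher and 3.49% lower, 22.3% together. The direction of these calls depends on the scale. The derived levels summed to 747908 CPM in the denominator group and 2080931 CPM in the numerator group, a difference of 1.48 on the log2 scale. With both totals set equal, 1412 of the called genes lay above 0 and 1435 below, in place of 2401 and 446. Setting the median of all genes, -0.13, to 0 left the split at 2401 and 446. A family whose median is under 1.48 is higher in the numerator group only on the deposited scale.

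From 3 log2 CPM upward, fold changes also followed the level of a gene. Among named genes, which leave out small RNA genes, predicted genes and clone names, the median log2 fold change was -0.54 for 1735 genes at 3 to 4 log2 CPM in the denominator group. It was -0.37 for 2841 genes at 4 to 5, 0.10 for 2784 genes at 5 to 6, 1.02 for 927 genes at 6 to 7, and 1.91 for 142 genes at 7 to 8. Of the last of these, 97.9% were called higher, against 8.76% at 4 to 5 log2 CPM. Below 3 log2 CPM the order turned. The median was -0.19 for genes under 1 log2 CPM, -0.41 at 1 to 2 and -0.50 at 2 to 3. In these ranges 15.8%, 15.2% and 11.8% were called higher. Most family medians below are therefore set beside the genes of like level. The value for these is the mean, over the members, of the median of all named genes in the same 1-unit range of denominator level. A median and such a mean are unlike measures. For some families the median difference of each member from its own level range is therefore added. Level and fold change share the denominator estimate, so errors in it enter both. Transcript length also moved with the fold change. At 5 to 6 log2 CPM the median was 0.21 for 538 genes with a transcript of at most 1000 bases and -0.14 for 299 genes with one over 4000 bases. At 6 to 7 log2 CPM 72.7% of 344 short and 37.1% of 35 long genes were called higher. The part of level, length and the summed levels in the family results was not tested.

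**Figure D1:**
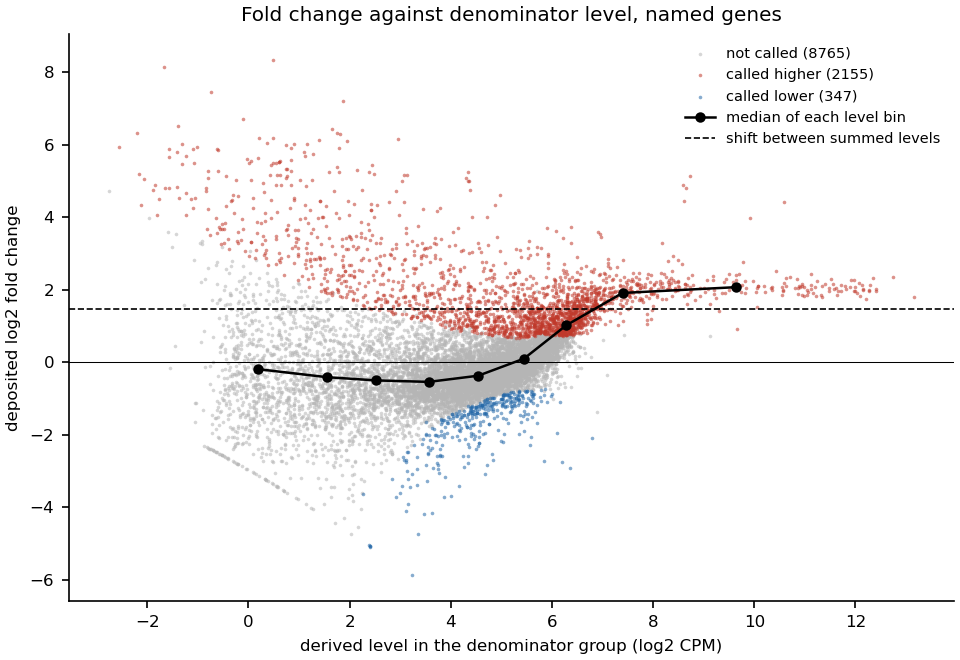
Deposited log2 fold change of each named gene (y axis) against its derived level in the denominator group in log2 CPM (x axis), with 2155 genes called higher in red, 347 called lower in blue and the others in grey. Black points join the medians of level ranges, which turn from -0.54 at 3 to 4 log2 CPM to 1.91 at 7 to 8, and the dashed line marks the 1.48 difference between the summed levels.

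Small RNA genes, described last, had the largest differences of all, and were left out of the naming rule with predicted genes and clone names. Among the 12 largest increases by that rule, Cd209g and Cd209f, C-type lectins of the DC-SIGN family, had log2 fold changes of 8.34 and 7.20 in the authors' deposited table, from 1.40 to 453 CPM and from 3.67 to 541 CPM. Itgad, the integrin alpha D chain of red pulp and marrow macrophages, went from 3.36 to 270 CPM. The paired immunoglobulin-like receptor genes Pira2, Pilrb1 and Pilrb2 had log2 fold changes of 6.41, 6.15 and 6.10 in the authors' deposited table. Bcl2a1d and Bcl2a1a, survival genes of the BCL2 family, had 6.29 and 6.13 there. The others were Ifit3 at 6.19, the carbonyl reductase Cbr2 at 6.18, the adaptor Sh2d1b2 at 6.05 and the ribosomal pseudogene Rpl34-ps1 at 6.01, whose adjusted p was only 0.044 in the authors' deposited table. Several of these genes have near-identical copies (the Bcl2a1, Pilrb, Pira and Cd209 groups, and the pseudogene), so the split of reads between copies is uncertain.

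The list of resident macrophage markers moved with these genes. All 23 of its 27 genes that were in the table rose, with log2 fold changes from 1.67 to 5.90 and a median of 5.07, against -0.32 for genes of like level and 3.59 after setting the totals equal. Their summed level was 310 CPM in the denominator and 6293 CPM in the numerator group. No marker was at 0 in either group, and the lowest denominator level was that of Vsig4, a complement receptor, at 0.468 CPM. Marco, Lyve1, Gpnmb and Clec4f were not in the table. Spic, a transcription factor of iron-recycling macrophages, went from 4.43 to 176 CPM, the hemoglobin scavenger receptor gene Cd163 from 8.44 to 178 CPM, and Mertk, a receptor for apoptotic cells, from 1.53 to 70.6 CPM. In bulk RNA a difference in the number of macrophages and a difference in RNA per cell cannot be told apart. Megakaryocyte and platelet markers rose as well, 18 of 21 measured, from a summed 464 to 2709 CPM. Lymphoid markers fell, 14 of 19 measured against 1 that rose (Nkg7, a granule protein of cytotoxic cells), from a summed 695 to 411 CPM, with Klrd1 near 0 in the numerator group. Of 10 measured endothelial and stromal markers 2 rose (Esam and Tie1) and 1 fell (Pdgfrb, from 11.3 to 1.59 CPM). Their median was -1.05 against -0.38 at like level, with sums of 100.04 and 99.2 CPM. The part of these cell types in the following families was not tested.

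Complement genes rose in step with the macrophage list, with which they share 5 members. Of 20 measured complement genes 14 rose and none fell, with a median of 2.61 against -0.24 for genes of like level. C1qa, C1qb and C1qc encode the chains of C1q, the recognition molecule of the classical pathway. They were 20.4, 20.6 and 19.7 CPM in the denominator group and 653, 659 and 662 CPM in the numerator group, so the chains kept near-equal levels in both. C4b and C2, the next components of that pathway, went from 0.663 to 25.7 CPM and from 0.456 to 10.3 CPM. Cfp, which encodes properdin, the stabiliser of the alternative pathway, went from 52.3 to 411 CPM. C3, the shared central component, was not called, at 45.7 and 28.5 CPM (adjusted p = 0.0864 in the authors' deposited table).

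Lipid handling genes, of uptake, storage and efflux, had more increases than the background. Of 21 measured 13 rose and none fell, with a median of 2.31 against -0.16 at like level. Apoe, the apolipoprotein of cholesterol efflux, went from 82.9 to 803 CPM, the fatty acid binding proteins Fabp4 and Fabp5 from 3.34 to 141 CPM and from 102 to 647 CPM, and the lipase gene Lpl from 4.77 to 127 CPM. Plin2, the coat protein of lipid droplets, rose from 52.1 to 96.5 CPM. Among the 8 not called were enzymes that esterify lipid. Soat1 was 17.6 and 13.7 CPM, Dgat1 23.5 and 17.3 CPM and Dgat2 12.5 and 9.19 CPM. Cholesterol synthesis genes had 3 of 25 called higher and a median of -0.09 against -0.21 at like level. The nuclear receptors that control these genes in macrophages rose too. Pparg went from 1.45 to 64.9 CPM, Nr1h3, which encodes the liver X receptor alpha, from 2.66 to 57.9 CPM, and their partner Rxra from 4.74 to 26.9 CPM. Among all 22 measured nuclear receptors 5 rose, none fell, and the median was 0.23 against -0.37 at like level.

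Genes of iron storage and transport also rose in part. Of 20 measured 12 rose and none fell, with a median of 1.63 against 0.40 at like level. The median difference of the members from like level was 0.57. The ferritin chains Ftl1 and Fth1 went from 1532 to 32919 CPM and from 288 to 2809 CPM. Hmox1, the enzyme that opens heme, went from 29.4 to 592 CPM, the iron exporter gene Slc40a1 from 30.2 to 328 CPM, and Slc11a1, the iron pump of phagosomes, from 2.19 to 112 CPM. Of the 8 not called, Tfrc, the transferrin receptor, was 59.1 and 60.5 CPM, the endosomal reductase Steap3 47.8 and 35.0 CPM, and the iron regulatory protein gene Ireb2 28.3 and 16.6 CPM. Ftl1 has processed pseudogenes, so its count may include their reads.

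Lysosomal genes rose in 26 of 48 measured and fell in 2, with a median of 1.26 against 0.08 at like level and -0.21 at equal totals. Psap, the precursor of the saposins that help break down sphingolipids, went from 120 to 1450 CPM, the protease gene Ctsd from 90.04 to 674 CPM and the lysosomal membrane tetraspanin gene Cd63 from 138 to 875 CPM. The 2 that fell were the sulfatase genes Arsb, from 47.98 to 26.2 CPM, and Galns, from 33.3 to 18.3 CPM. The V-ATPase, the proton pump that acidifies the lysosome, had 9 of 17 higher with a median of 0.80, against 0.39 at like level. Its highest calls were the small subunits Atp6v1g1 and Atp6v1f, at log2 fold changes of 2.26 and 2.13 in the authors' deposited table. Rab GTPases, which direct vesicles, had 15 of 49 higher and none lower, among them Rab7 of late endosomes, from 184 to 660 CPM, and Rab27b of secretory granules, from 4.09 to 26.3 CPM.

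**Figure D2:**
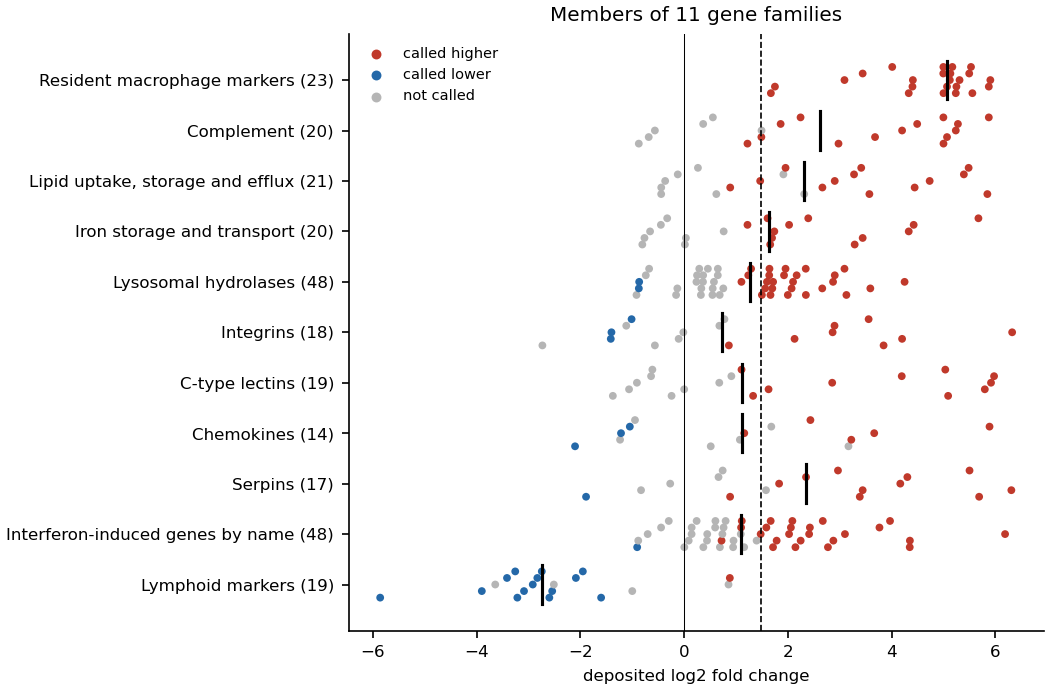
Deposited log2 fold change (x axis) of every measured member of 11 gene families (rows, with the number of members in brackets), in red where called higher, blue where called lower and grey where not called. Vertical bars are the medians, from -2.75 for lymphoid markers to 5.07 for resident macrophage markers, and the dashed line marks the difference of 1.48 between the summed levels.

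Surface receptors of myeloid cells split between members. Of 19 C-type lectin genes of the Clec family, 10 rose and none fell. Their median was 1.11 against -0.39 at like level, with a range from -1.38 to 5.98. Clec4a3, Clec4b1 and Clec4a1, a cluster of lectin receptors with similar sequences, were 1.67, 3.44 and 2.13 CPM in the denominator group and 105, 208 and 119 CPM in the numerator group. Of 11 Fc receptor genes and adaptors 8 rose, with a median of 2.08 against 0.12 at like level. Among them Fcgrt, which recycles antibody, went from 10.997 to 204 CPM and the adaptor genes Tyrobp and Fcer1g from 113 to 636 CPM and from 89.9 to 506 CPM. Fcer1a, the antibody-binding chain of the mast cell and basophil receptor, fell from 19.5 to 6.27 CPM. The Ms4a family divided likewise. Ms4a7, found in macrophages, went from 1.86 to 120 CPM, whereas Ms4a2, the beta chain of the same mast cell receptor, fell from 22.5 to 4.28 CPM. Of 6 Siglec genes, receptors of sialic acid, 2 rose and 2 fell. Siglec1, a marker of marrow and lymph node macrophages, went from 1.54 to 72.5 CPM and Siglece from 7.22 to 18.3 CPM, while Siglec5 fell from 20.5 to 6.75 CPM and Siglecg, an inhibitor of B cell signalling, from 23.6 to 9.59 CPM.

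Integrins were divided in the same manner, with 8 of 18 higher and 3 lower. Apart from Itgad, the calls with the smallest p were Itga2b and Itgb3, the chains of the platelet fibrinogen receptor, from 41.9 to 313 CPM and from 10.7 to 77.5 CPM. The 3 that fell were Itgal, the alpha chain of LFA-1, from 44.5 to 16.7 CPM, Itgb7, the gut homing chain, from 31.9 to 12.1 CPM, and Itga4, which pairs with it, from 40.2 to 19.9 CPM. Tetraspanins, membrane organisers that bind integrins, had 10 of 22 higher and 3 lower. Cd9 went from 45.9 to 410 CPM and Cd81 from 69.9 to 248 CPM, while Tspan2 and Tspan8 fell from 18.4 to 5.23 CPM and from 22.8 to 8.69 CPM.

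Secreted signals moved both ways. Of 14 chemokine genes 5 rose and 3 fell. Ccl8 went from 0.338 to 20.02 CPM, Ccl6 from 10.1 to 94.4 CPM, and the interferon-gamma target genes Cxcl9 and Cxcl10 from 0.924 to 11.7 CPM and from 2.40 to 12.98 CPM. Ccl27a was the fifth. The inflammatory chemokine gene Ccl3 fell from 19.5 to 4.54 CPM, Ccl9 fell from 34.7 to 16.8 CPM, and Ccl5 stood at -1.22 (log2 fold change in the authors' deposited table). Among 33 interleukin and colony-stimulating factor receptor genes 8 rose and 5 fell. Il11ra1 went from 33.2 to 132 CPM and Csf1r, the receptor of macrophage colony-stimulating factor, from 44.3 to 149 CPM. Il7r, needed for lymphoid progenitors, fell from 14.7 to 1.65 CPM and Il1rl1, the interleukin-33 receptor of mast cells, from 13.8 to 2.66 CPM. The TNF superfamily had 1 of 23 higher and 2 lower, at a median of -0.76 against -0.36 at like level. Its calls were Tnfsf12, which encodes the ligand TWEAK, from 5.56 to 27.0 CPM, Tnfrsf26, from 13.1 to 2.84 CPM, and Tnfrsf14, from 40.8 to 23.3 CPM.

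Protease inhibitors of the serpin family had 11 of 17 higher, 1 lower and a median of 2.35, against -0.22 at like level. Serpinb6a went from 13.3 to 238 CPM and Serpina3g, an inhibitor of cathepsins, from 47.7 to 372 CPM. Serpinf1, which encodes the anti-angiogenic factor PEDF, fell from 43.8 to 11.8 CPM. Serpina3 and Serpinb genes have close copies in the mouse, so their counts are uncertain. Metalloproteinases and their inhibitors had 4 of 27 higher. Of these Timp3 and Timp2, inhibitors of the enzymes, went from 3.02 to 32.2 CPM and from 7.53 to 66.3 CPM.

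Genes named for their induction by interferon rose in 24 of 48 measured and fell in 1, with a median of 1.10 against -0.20 at like level and -0.37 at equal totals. Oas1g, of the family that senses double-stranded RNA, went from 10.3 to 140 CPM, and the nuclear DNA sensor genes Ifi205 and Ifi204 from 15.9 to 102 CPM and from 5.34 to 109 CPM. Gbp3, a guanylate-binding protein gene, fell from 33.7 to 18.0 CPM. The interferon-stimulated response element, searched as GAAANNGAAA on both strands from 250 bases before to 50 bases after the start in RefSeq promoters of GRCm38, was found in 349 of 8967 genes (3.89%). It was found in 96 of 1672 genes called higher (5.74%) and 9 of 261 called lower (3.45%), with overlapping matches counted once per gene. Of the interferon-induced genes with a promoter, 19 of 32 held it, 11 of the 14 called higher and 8 of the 18 others. Outside that list 85 of 1658 genes called higher held it (5.13%). The match is a description of letters and not a site of binding. The stretches from Oas1g (chr5:120887614-120887653, minus strand) and Ifi205 (chr1:174031865-174031904, minus strand) show what the element looks like in members with small p, upstream of the start and 5′ to 3′, with matches in capitals. In Oas1g 2 matches overlap.
Oas1g: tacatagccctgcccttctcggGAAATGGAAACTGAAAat
Ifi205: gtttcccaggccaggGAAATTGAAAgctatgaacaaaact

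Machinery that every cell uses rose on the deposited scale, with medians near those of genes of like level for most families. Respiratory complex I, which feeds electrons from NADH, had 31 of 36 subunit and assembly genes higher and none lower, with a median of 1.21 against 1.02. Complexes II and III had 12 of 13 higher, with a median of 1.202 against 1.25. Complex IV, cytochrome c oxidase, had 11 of 16 higher with a median of 1.89 against 1.0. The ATP synthase had 15 of 17 higher with 1.96 against 1.42. Taken member by member, the median difference from like level was 0.46 for complex IV and 0.13 for the ATP synthase. Ndufb4 of complex I went from 298 to 1612 CPM, Uqcr11 of complex III from 261 to 1150 CPM, Cox7c of complex IV from 725 to 3893 CPM and Atp5g2 of the ATP synthase from 901 to 4221 CPM. The 1 gene of complex IV that fell was Cox7a1, the heart and muscle form of a subunit, from 5.30 CPM to 0.157 CPM. The mitochondrial ribosome, which makes the subunits encoded in mitochondria, had 28 of 76 higher with a median of 0.52 against 0.39, led by Mrps21. The import machinery had 11 of 20 higher with 0.76 against 0.52, led by Timm23. Fatty acid oxidation had 4 of 18 higher, Hadhb among them from 87.7 to 419 CPM, with a median of 0.28 against 0.15. At equal totals only complex IV and the ATP synthase among these respiratory and mitochondrial families kept a median above 0, at 0.41 and 0.49.

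Translation and protein turnover gave a similar picture. Initiation factors had 30 of 48 higher and 1 lower, with a median of 0.96 against 0.67. Eif1, which helps select the start codon, went from 584 to 3015 CPM, and Eif4a1, the helicase that unwinds leaders, from 796 to 3809 CPM, while Eif4e3 fell from 26.2 to 12.4 CPM. Of 7 elongation factor genes 5 rose, with a median of 1.80 against 1.34. Member by member, however, the median difference from like level was -0.09, and 2 of 7 lay above like level. All 8 genes of the chaperonin CCT, which folds actin and tubulin, rose within a narrow range from 1.18 to 1.49, with a median of 1.32 against 1.02. Aminoacyl-tRNA synthetases, which charge tRNAs, had 2 of 20 higher and a median of 0.21 against 0.38. The proteasome had 28 of 47 higher and none lower, at 0.91 against 0.78. Psme2, the interferon-induced activator subunit, went from 113 to 483 CPM and the core subunit gene Psmb3 from 229 to 1023 CPM. Genes of translocation into the endoplasmic reticulum and of N-glycan transfer had 19 of 32 higher, at 0.91 against 0.66. Ubiquitin-conjugating enzymes had 14 of 32 higher and none lower. In contrast none of 54 F-box protein genes, which choose the targets of ubiquitin ligases, was called, and their median was -0.37 against -0.32.

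Genes of RNA processing differed between families. The hnRNP proteins, which coat new transcripts, had 16 of 20 higher with a median of 1.44 against 0.98, led by Hnrnpf from 1007 to 4724 CPM. Spliceosomal Sm, Lsm and snRNP proteins had 17 of 30 higher at 0.89 against 0.71, and SR splicing factors 7 of 11 at 0.83 against 0.98. RNA polymerase II had 8 of 13 subunit genes higher, the small shared subunits Polr2k and Polr2l having the smallest p. Large regulatory complexes had few calls. None of 11 Integrator genes passed, with a median of -0.65 against -0.09, and the Mediator had 2 of 30 higher and 2 lower.

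Families of chromosome maintenance differed. DNA replication genes had 8 of 47 higher and 2 lower, with a median of 0.06 against 0.42 for genes of like level, and Pcna, the sliding clamp of the polymerases, went from 488 to 1738 CPM. Replication-dependent histones, which package new DNA, had 48 of 64 higher and none lower, with a median of 2.10 against -0.42 for genes of like level. Their copies are near-identical, so single members are uncertain. Repair, centromere and motor families had few calls. None of 34 genes of homologous recombination and mismatch repair rose and 1 fell, Brca1, from 21.4 to 9.30 CPM, with a median of -0.74 against -0.28. Of 10 Fanconi anemia genes, which repair crosslinks, none rose, Fancd2 fell from 20.7 to 8.04 CPM, and all had a fold change below 0. Centromere proteins had 2 of 18 lower (Cenpn and Cenpp) at a median of -0.66 against -0.12. Of 28 kinesin genes, the motors of spindle and transport, 2 fell and 1 rose. Kif23 and Kif15, which act in division, fell from 39.1 to 19.9 CPM and from 36.3 to 18.7 CPM, and Kif5b, a transport motor, rose from 42.4 to 91.8 CPM. Tubulin genes had 11 of 16 higher and a median of 1.88 against 0.44. Their median difference from like level, member by member, was only 0.29, with 9 of 16 above like level. The beta forms Tubb2b and Tubb2a went from 5.35 to 97.7 CPM and from 21.5 to 178 CPM, and the common alpha form Tuba1a from 541 to 2191 CPM. Tubulin genes share long stretches of sequence, which makes single members uncertain. Actin and its regulators had 27 of 48 higher and 1 lower, with a median of 1.03 against 0.56 and a median member difference of 0.22. Tmsb4x, which holds actin monomers, went from 125 to 1361 CPM and Actb from 337 to 2558 CPM. Among 20 myosin genes 3 light chains rose, Myl6 first among them from 874 to 5936 CPM, and 3 genes fell, the light chain gene Myl10 from 57.3 to 8.72 CPM.

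**Figure D3:**
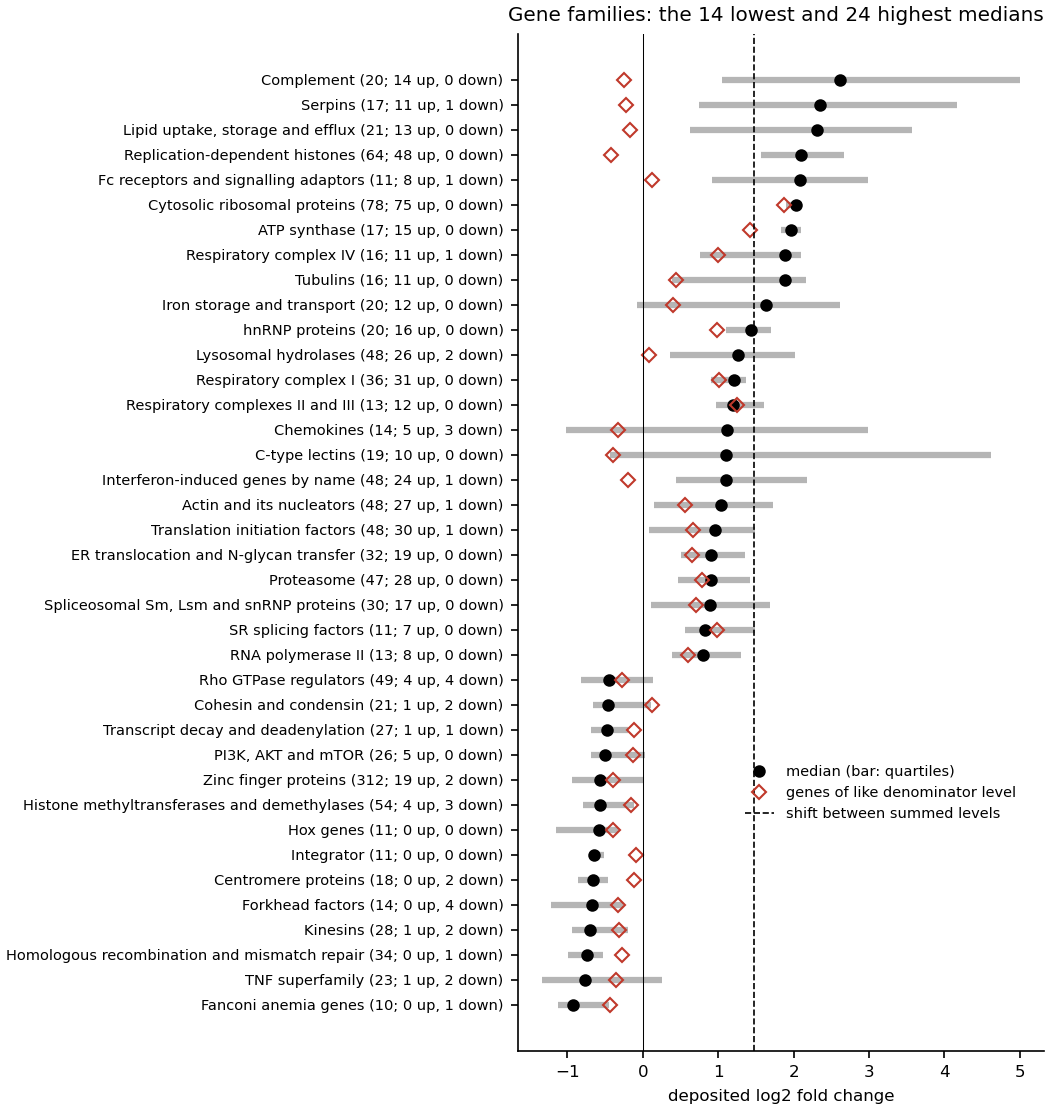
Median deposited log2 fold change (black points, x axis) of the 14 lowest and 24 highest families with 10 or more measured members (cell marker lists not drawn), with the interquartile range of the members as grey bars and, as open diamonds, the value for genes of like denominator level. Complement, serpin and lipid families lie over 2 units to the right of their diamonds, whereas respiratory complex I and the proteasome lie close to theirs; the row names give members, genes called higher and genes called lower.

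Families of transcription factors differed in their calls. Of 312 zinc finger (Zfp) genes, many of them repressors, 19 rose and 2 fell, with a median of -0.56 against -0.39. The share called higher was 6.09%, against 18.8% of all genes, at a median denominator level of 3.25 log2 CPM. Forkhead factors had none of 14 higher and 4 lower, 28.6% against 3.49% of all genes. The 4 were Foxn3 from 13.4 to 3.28 CPM, Foxo3, which guards quiescence in stem cells, from 27.5 to 12.2 CPM, Foxp1, which acts in B cell development, from 26.6 to 11.4 CPM, and Foxp4 from 25.1 to 11.98 CPM. None of 11 Hox genes was called, with a median of -0.58 against -0.39 at like level. Among AP-1 and ATF factors 7 of 20 rose. Maf, a factor of macrophage differentiation, went from 1.69 to 59.4 CPM, and Jund from 34.3 to 98.0 CPM.

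The developmental signalling pathways listed had shares called higher of 12.5% to 15%, below the 18.8% of all genes. Shares called lower were 15% for Notch and 9.52% for Wnt, above the 3.49% of all genes, and 0% for TGF-beta and BMP. These rest on few genes, and single members are given as values. Of 20 Notch pathway genes 3 rose and 3 fell. Notch1, the receptor of T lineage choice, fell from 23.6 to 4.99 CPM, and Rfng and Lfng, which modify the receptor with sugars, rose from 36.1 to 78.2 CPM and from 20.1 to 56.7 CPM. In the Wnt pathway 3 of 21 rose and 2 fell. The lymphoid factors Lef1 and Tcf7 fell from 14.6 to 1.11 CPM and from 12.6 to 1.66 CPM, while their relative Tcf7l2 rose from 4.19 to 14.05 CPM. In the TGF-beta and BMP pathway 3 of 24 rose and none fell. The ligand gene Tgfb1 went from 79.1 to 240 CPM, its receptor gene Tgfbr2 from 15.8 to 48.5 CPM and Acvrl1, a type I receptor of vessels, from 1.70 to 21.5 CPM.

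Solute carriers had 31 of 211 higher and 4 lower, a share called higher of 14.7%. Their median was -0.13 against -0.28 at like level. Slco2b1, an organic anion carrier, went from 1.78 to 68.4 CPM, and Slc38a5, an amino acid carrier of erythroid cells, fell from 41.2 to 15.1 CPM. Its fall does not stand for erythroid genes at large, which were not tallied here. The globin genes Hbb-b2, Beta-s, Hba-a1 and Hba-a2 rose, at log2 fold changes of 4.89, 4.79, 3.97 and 3.71 in the authors' deposited table. ABC transporters had 6 of 33 higher and 1 lower. Abcc3 went from 1.48 to 53.2 CPM and the cholesterol exporter gene Abca1 from 2.62 to 19.6 CPM. The peroxiredoxin and thioredoxin system had 9 of 17 higher at 0.78 against 0.53, led by Prdx1 from 138 to 989 CPM. Glutathione enzymes had 11 of 29 higher, Gpx4, which removes lipid peroxides, from 314 to 2174 CPM. Among 36 apoptosis genes 7 rose and 2 fell. The Bcl2a1 genes were among those that rose, and Apaf1 and Bcl2 fell from 25.7 to 11.9 CPM and from 23.8 to 10.6 CPM.

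Grouping genes by the letters before the first digit of their names, without a chosen list, gave 101 stems of at least 12 genes. The 8 with the highest share called higher are set against a background of 18.8%. First were Rpl (46 of 49), Ndufa (11 of 13), Hist (49 of 65) and Rps (31 of 42). Then came H (29 of 43, among them the H2 histocompatibility genes), Eif (31 of 56), P (8 of 15) and Clec (10 of 19). The median of Rpl was 2.04 against 1.70 at like level, that of Rps 1.96 against 1.44 and that of Hist 2.10 against -0.42. As a listed family, cytosolic ribosomal proteins had 75 of 78 higher, at 2.03 against 1.88. Of these 78 genes, 38 lay above like level. The 8 with the highest share called lower are set against a background of 3.49%. They began with Tspan (3 of 15), Stx (2 of 13), Cep (3 of 20) and Myo (2 of 15). Tnfrsf (2 of 15), Pde (2 of 16), Il (5 of 42) and Atp (7 of 62) followed. More members rose than fell for Tspan (4 higher), Il (9 higher) and Atp (30 higher, at a median of 0.79). Pde had 2 higher, Stx and Myo 1 each, and Cep and Tnfrsf none. Cep genes of the centrosome had a median of -0.90 against -0.37 at like level.

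Small RNA genes apart, the 12 largest decreases by the naming rule began with Dntt, Igll1 and Myl10 at log2 fold changes of -2.92, -2.75 and -2.71 in the authors' deposited table. Vpreb1 and Vpreb3, of the surrogate light chain with Igll1, followed at -2.09 and -1.95 there. Cpa3, a mast cell protease, fell from 51.9 to 16.2 CPM and Cd93, a receptor of early progenitors, from 48.7 to 17.1 CPM. The others were Cnn3, the adaptor gene Lat2, Tifab, the histone methyltransferase gene Whsc1 and Cdk6, a kinase of the G1 phase, which fell from 49.6 to 22.6 CPM.

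Small RNA genes fell more often than they rose, with 69 of 148 lower and 14 higher. Of these, 52 had a derived level of at least 20 CPM in the denominator group and under 0.2 CPM in the numerator group. Most small nucleolar RNAs (snoRNAs), which guide the modification of ribosomal RNA, are cut from introns of other genes. In the RefSeq annotation of GRCm38, used for containment only, 68 snoRNAs with at least 20 CPM in the denominator group lay within 1 other gene of the table. Of their 48 host genes 37 rose and none fell. Of the snoRNAs, 26 were under 0.2 CPM in the numerator group, from levels between 23.6 and 3251 CPM in the denominator group, and of their 23 hosts 16 rose. The other 42 had a median log2 fold change of -0.39, with 1 called higher and 8 lower. For 9 hosts, snoRNAs of both kinds came from the same gene.

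The pair from Gnb2l1, which encodes a ribosomal scaffold protein, shows this. Gnb2l1 itself stood at 2.34 (log2 fold change) in the authors' deposited table, while its snoRNA gene Snord95 went from 532 to 0.160 CPM and Snord96a was at 1868 and 1788 CPM. Such fold changes to near 0 depend on how the authors treated counts of 0, so the levels are given in their place. Length differed between the kinds, with a median of 75.5 bases for the 26 and 128 bases for the other 42, though both ranges overlapped (64 to 149 and 69 to 184 bases). The part of length and of library preparation was not tested. The sequences of GENCODE on GRCm38 are printed to show that these snoRNAs carry the same guide RNA boxes. They lie at chr11:48803139-48803206 and chr11:48802032-48802112 on the plus strand. Capitals mark the first match of the C box (ATGATGA or GTGATGA, here the latter) and the last match of the D box (CTGA), each read 5′ to 3′ on the gene's strand.
Snord95: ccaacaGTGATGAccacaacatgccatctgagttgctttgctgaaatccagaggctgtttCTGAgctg
Snord96a: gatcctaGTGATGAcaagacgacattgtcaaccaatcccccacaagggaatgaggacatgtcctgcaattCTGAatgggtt

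**Figure D4:**
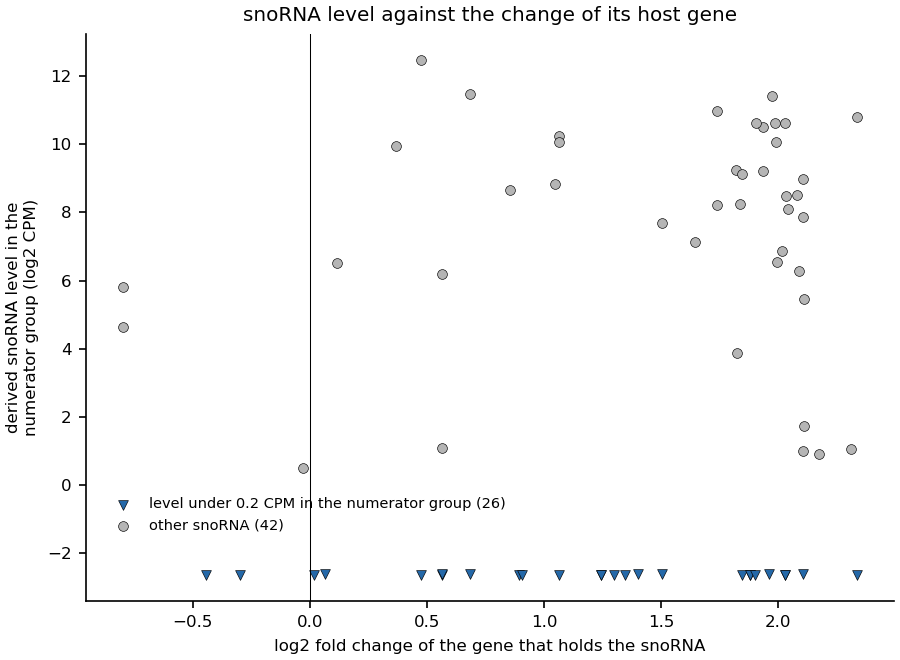
Derived level of 68 snoRNAs in the numerator group in log2 CPM (y axis) against the deposited log2 fold change of the gene that holds each (x axis). The 26 under 0.2 CPM (triangles) form a line at the bottom across hosts from below 0 to above 2, and the other 42 (circles) lie above them over a similar range of host fold changes.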

How the data were processed

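Per the labels' protocols, libraries were built from total RNA with Illumina's TruSeq RNA reagents. Bowtie 0.12.2 and the build mm8 are named in the submitters' processing notes, without their roles. The sources used here do not name the counting and testing programs. Per the file headers, the authors deposited for each gene a log fold change and mean log CPM, read here as log2 values because levels derived with base 2 match between both comparisons. The p-values and false discovery rates were deposited by the authors, and the rates equal a Benjamini-Hochberg adjustment of the p-values.

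No value per library was available, so the tests planned per library were not run and the authors' tests were used. Group levels of the first comparison were solved from mean and fold change at a weight of 0.5 for each group (Python 3.11.15, numpy 2.4.6, pandas 2.3.3). The step returned the known levels on simulated means built by the same formula without noise. That checks the algebra only, and cannot show whether the deposited means follow the formula. A gene was called at an adjusted p under 0.05. The 105 gene lists and the members named were chosen with earlier results of these data known. Named genes are Kdr, Kit, Ly6a and Id2, the sex-linked genes, the 12 largest fold changes per direction among called genes with a mean of at least 5 log2 CPM and 1 CPM in both groups (small RNA, predicted and clone genes left out), and up to 3 called members per family with the smallest p, plus up to 2 in the other direction. Other genes named, such as Spic, Cd163, Mertk, C4b, C2, Cfp, C3, Lpl, the uncalled lipid and iron genes, Cxcl10, Ccl5, Foxp4, Itga4, the globin genes and the snoRNA pair, were chosen after their values were seen. Of the names, 99.2% matched a RefSeq symbol or synonym of GRCm38, and 19 names that had become dates were not named. Coordinates are of GRCm38 and were not converted from the files' build. Transcript lengths are medians over GENCODE M21 transcripts and covered 94.8% of named genes. Some members of the lists are not reported here by name.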

Additional observations from a re-analysis of the deposited data

How the results depend on the processing

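No paired analysis was possible because the deposited table holds no value per library, and leaving out single replicates was not possible for the same reason. The genes called higher numbered 1231 and the genes called lower 77 with a Bonferroni adjustment. The genes called lower numbered 233 at an adjusted p under 0.01, 724 under 0.10 and 257 with a mean of at least 4 log2 CPM. With equal totals 1412 called genes were higher and 1435 lower, or 1394 higher with the fitted weight of 0.48, an alternative chosen after seeing the data. The match of denominators remained the closest pair of sides under all 4 alternatives run for it.

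With equal totals the median log2 fold change turned negative for 19 of the 32 families with at least 50% of members called higher. It became -0.27 for respiratory complex I, -0.27 for complexes II and III, -0.72 for mitochondrial import, -0.52 for initiation factors, -0.16 for the chaperonin CCT, -0.57 for translocation into the endoplasmic reticulum and -0.57 for the proteasome. It became -0.59 for Sm, Lsm and snRNP proteins, -0.65 for SR factors, -0.04 for hnRNP proteins, -0.68 for RNA polymerase II, -0.68 for the V-ATPase, -0.21 for lysosomal hydrolases and -0.44 for actin and its nucleators. It became -0.37 for C-type lectins, -0.37 for interferon-induced genes, -0.04 for Schlafen genes, -0.63 for S100 and stefin genes and -0.70 for the peroxiredoxin and thioredoxin system. The same step turned single genes that had been called higher. These were Acadm at -0.26, Cct3 at -0.09, Cct5 at -0.10, Ctnnb1 at -0.58, Fcgr2b at -0.15, Gsk3a at -0.64, Il10rb at -0.05, Kif5b at -0.36, Ms4a3 at -0.41, Nkg7 at -0.60, Rbpj at -0.54, Rfng at -0.36 and Siglece at -0.13. The cause of the difference in summed levels was not tested. Centring on the median of all genes reversed no family and no named gene. Depth is unknown, so no limit of detection can be given.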

Other observations

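The gene neighbours of Kdr, whose locus carries the reporter, held 1 call. Of the 12 protein-coding neighbours on each side in RefSeq order, 19 were measured, with a median log2 fold change of -0.29, and 1 was called in the authors' deposited table. That gene was Paics, an enzyme of purine synthesis, from 93.6 to 212 CPM, 11 genes away, whereas its neighbour Ppat, the first enzyme of the same pathway, was 41.2 and 33.7 CPM.

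Eef1a1 was at 9082 CPM in the denominator group and 31532 CPM in the numerator group of the first comparison. In the numerator group of the second comparison its derived level was 0.126 CPM, although it encodes an abundant elongation factor that nearly every cell makes.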
